A study of Mus musculus with 8 samples.

Results

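The 4 loci described here are the paternally methylated imprinting control regions of the mouse at H19, Meg3, Rasgrf1 and Zdbf2. Their members were all cytosines of the deposited methylation table inside fixed intervals of mm10: chr7:142575000-142585000 around H19, chr12:109525000-109545000 for the Dlk1-Meg3 intergenic region and the Meg3 promoter, chr9:89865000-89885000 upstream of Rasgrf1, and chr1:63255000-63275000 at Zdbf2. The intervals are set by coordinates alone. They held 210 of the 2130064 cytosines that were tested on chromosomes 1 to 19, X and Y, with 22 at H19, 93 at Meg3, 8 at Rasgrf1 and 87 at Zdbf2.

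The samples were labelled type A spermatogonia and came from C3H/HeN mice at postnatal day 6 (PD6). The control dams drank tap water, and those of the arsenic group were given sodium arsenite at 85 ppm in it between gestational days 8 and 18. Each group had 4 samples from F1 males, each a pool of 8 testes from 4 mice, whose spermatogonia were taken with magnetic beads against CD49f, so that every sample was a bead-enriched fraction. Methylation was read by reduced representation bisulfite sequencing (RRBS), in which MspI cuts DNA at CCGG and unmethylated cytosines are converted, so that the methylation level of a cytosine is the percentage of its reads that still carry C.

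Imprinted genes are expressed from 1 parental allele, and an imprinting control region carries the parental mark as DNA methylation. At most such regions the egg sets the mark, and at a few the male germ line sets it. The 4 regions here are grouped by their paternal methylation, and when it is set was not tested at any of them. In somatic cells they are methylated on the paternal allele alone, whereas in male germ cells the parental marks are erased and methylation is then laid down on both alleles, from the prospermatogonia onwards. Maternally methylated regions stay unmethylated in male germ cells. A count of methylated reads does not say which allele or which cell a read came from. Partial methylation of every cell, methylation of 1 allele in each cell and full methylation of some cells therefore cannot be told apart.

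The sequences below show 1 measured stretch of each locus, chosen because it lies upstream of the gene, where the paternal mark is known to be placed. They hold some of the cytosines of each locus and, except at Rasgrf1, not most of them. They are the forward strand of GRCm38, the assembly of the same build as mm10, which was made from C57BL/6J and not from C3H/HeN mice. Capitals mark the CpGs that were measured on at least 1 strand.
H19 stretch 4 (chr7:142581187-142581387): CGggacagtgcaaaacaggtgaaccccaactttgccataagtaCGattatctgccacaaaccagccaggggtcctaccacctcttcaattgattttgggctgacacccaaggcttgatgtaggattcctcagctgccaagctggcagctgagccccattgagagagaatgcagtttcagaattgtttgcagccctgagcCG
Meg3 stretch 1 (chr12:109529532-109529733): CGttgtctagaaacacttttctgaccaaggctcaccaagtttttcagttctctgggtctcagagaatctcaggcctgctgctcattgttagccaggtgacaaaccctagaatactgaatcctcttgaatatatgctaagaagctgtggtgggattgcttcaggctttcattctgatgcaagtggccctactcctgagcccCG
Rasgrf1 stretch 1 (chr9:89878077-89878315): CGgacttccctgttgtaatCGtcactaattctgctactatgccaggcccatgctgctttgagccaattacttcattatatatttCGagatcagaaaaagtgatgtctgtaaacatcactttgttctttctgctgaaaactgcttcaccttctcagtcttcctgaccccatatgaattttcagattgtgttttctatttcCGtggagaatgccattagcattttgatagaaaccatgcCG
Zdbf2 stretch 1 (chr1:63261205-63261428): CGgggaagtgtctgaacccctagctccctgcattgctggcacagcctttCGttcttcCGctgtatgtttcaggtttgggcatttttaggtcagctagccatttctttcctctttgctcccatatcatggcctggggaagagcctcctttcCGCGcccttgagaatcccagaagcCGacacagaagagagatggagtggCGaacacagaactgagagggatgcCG

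Coverage summed over the cytosines of the table ran from 96428439 to 133406260 per sample, with a median coverage of 31 to 44. A read counts in this sum at every cytosine it covers, so the sum is not a number of reads. The members were covered by 10 to 455 reads each, with a median of 38. At that median a level of 50% from 19 of 38 reads has a 95% Wilson interval of 34.8% to 65.2%, and 5 of 10 reads give 23.7% to 76.3%. These intervals cover counting error only. In these samples the promoters of 11 covered genes of the germline, among them Ddx4, an RNA helicase of germ cells, and Dazl, an RNA-binding protein of germ cells, had an average level of 83.8% (80.3% to 86.6% in single samples). Such promoters are methylated in somatic cells and unmethylated in germ cells, so this level goes against the label of the cells. The promoters of 11 covered maternally methylated genes had 56.0% (52.9% to 60.3%). Such promoters stay unmethylated in male germ cells, so this level goes against the label too. Promoters of 5 covered Sertoli cell genes were at 9.26%, from 1.20% at Sox9 to 28.2% at Fshr. Those of 2 covered Leydig and peritubular genes were at 2.13%, while none of 3 blood genes was covered. Other cell types were not measured here, so these low levels were not read as a sign of any cell type. The part of other cells in the levels below was not tested.

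The cytosines of the 4 loci were mostly at intermediate levels. Of the 210 members, 150 (71.4%) had a mean level from 20% to 80% over the 8 samples, against 23.4% of all cytosines. From 40% to 60% there were 114 members (54.3%), against 5.56% of all cytosines. At the ends, 46 members were under 5%, 44 of them at Zdbf2 and 2 at Meg3, and 0 were at 95% or more, where 9.20% of all cytosines lay. The distribution is shown beside that of all cytosines.

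**Figure D1:**
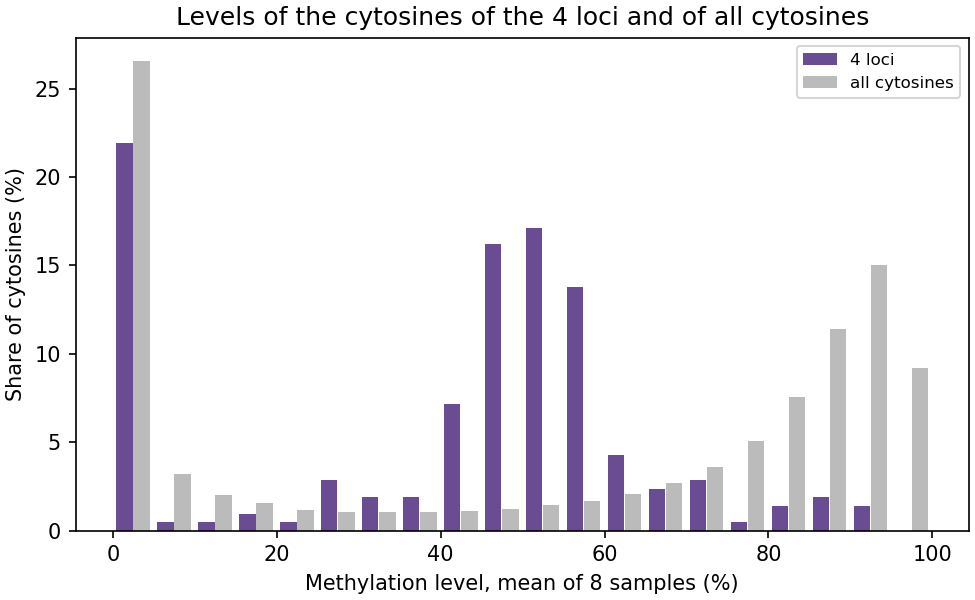
Share of cytosines (y axis, percent) by methylation level (x axis, percent, mean of 8 samples, in steps of 5 points), for the 210 cytosines of the 4 loci and for all 2130064 cytosines. The loci hold 54.3% of their cytosines between 40% and 60%, where all cytosines hold 5.56%.

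The average over each locus, an unweighted mean over its cytosines, was 62.6% ± 3.19 (SD, n = 8) at H19, 53.5% ± 2.83 at Meg3, 52.6% ± 6.58 at Rasgrf1 and 21.9% ± 1.73 at Zdbf2. H19 was above Meg3 in 8 of 8 samples, by 9.11 points (exact sign-flip test over samples, two-sided, adjusted p = 0.0117). H19 was above Rasgrf1 in 7 of 8 samples, by 9.96 points (exact sign-flip test, adjusted p = 0.0188). Meg3 and Rasgrf1, which are neighbours in this order, differed by 0.852 points with an SD of 7.11 over samples (exact sign-flip test, adjusted p = 0.703), so their order was not resolved. Zdbf2 was below each of the other loci in 8 of 8 samples, by 30.8 to 40.7 points (exact sign-flip test, adjusted p = 0.0117 each). The 6 pairs were adjusted together. These averages rest on different sets of cytosines, and that of Zdbf2 joins a methylated and an unmethylated part.

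All other cytosines had an average level of 54.0% (53.6% to 54.3%). H19 lay above it by 8.63 points in 8 of 8 samples (exact sign-flip test, adjusted p = 0.0156 over the 4 loci). With at least 20 reads in every sample, asked of H19 and of all other cytosines alike, this difference was 0.557 points (exact sign-flip test, adjusted p = 0.672). The call was lost, and both sides of the difference changed with this limit. Meg3 differed by -0.485 points and Rasgrf1 by -1.34 points (exact sign-flip test, adjusted p = 0.633 each). With at least 20 reads Meg3 was at -3.46 points and passed the test (exact sign-flip test, adjusted p = 0.0156). Rasgrf1 was at -6.06 points (exact sign-flip test, adjusted p = 0.0521). All 8 cytosines of Rasgrf1 had at least 37 reads, so its own level did not change. Its shift is that of the other cytosines, and the differences of H19 and Meg3 hold the same shift. The mean of the 4 loci was 47.7%, which was 8.31 points below the maternally methylated promoters in 8 of 8 samples (exact sign-flip test, p = 0.00781). Without Zdbf2 the mean of the other 3 loci was 56.2%, and its difference from these promoters was 0.287 points (SD 3.47, exact sign-flip test, p = 0.742), so the lower mean rests on Zdbf2. This comparison was added after the values were seen.

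At H19, which encodes a long noncoding RNA expressed from the maternal allele, the control region 2 to 4 kb upstream binds CTCF on the unmethylated allele and so insulates Igf2, the growth factor gene next to it. The gene runs on the reverse strand from its start site at 142578146, so upstream lies at higher coordinates. Its 22 cytosines fell into 4 stretches, where a gap of more than 500 bases parts 2 stretches. The 7 cytosines of the gene body, 1565 to 2351 bases into the gene, had the highest level, 77.7%. The 7 cytosines of the first exon, 2 to 185 bases from the start, had the lowest, 43.1%. The 4 cytosines at -719 to -622 bases had 66.7%.

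The single stretch in the control region itself, at -3241 to -3041 bases and printed above as H19 stretch 4, held 4 cytosines with 66.3% on average. Control samples 1 to 4 had 72.3%, 81.2%, 69.9% and 58.5%, and arsenic samples 1 to 4 had 58.1%, 69.5%, 60.9% and 59.7%. Both groups spanned a wide range and overlapped, with a difference of -8.45 points (SE 5.33, exact permutation test, p = 0.171, adjusted p = 0.771 over 12 stretches). The stretch was 4.47 points above the remaining 18 cytosines of the locus, with the higher level in 5 of 8 samples (exact sign-flip test, adjusted p = 0.141). With cytosines of at least 20 reads this difference was 8.998 points and passed the test (exact sign-flip test, p = 0.00781). The 4 cytosines of the stretch all had at least 26 reads, so only the remaining cytosines changed. These lost 142576148, 142576291, 142576514 and 142576581 in the gene body, with mean levels of 57.8%, 90.5%, 88.3% and 74.0%.

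The CTCF core GGNGGCAG, searched on both strands, occurred 10 times in the H19 interval, and 1.74% of windows of the same length on chromosome 7 held as many. In the control region 5 matches lay at -3895 to -2170 bases (GGTGGCAG at 142580309, 142580764 and 142582034, GGCGGCAG at 142581790 and GGGGGCAG at 142581909). None of the 10 matches held a measured cytosine, so the levels here are those of the sequence between them. The core of the site of ZFP57, the zinc finger protein that keeps imprints in the embryo, is TGCCGC. It occurred 6 times at H19, 11 times at Meg3, 11 times at Rasgrf1 and 3 times at Zdbf2, and 0.388%, 0.0685%, 0.0662% and 14.7% of windows of the same length on the same chromosomes held as many. For both motifs the windows were matched by length and chromosome, not by CpG content, and TGCCGC itself holds a CpG. The matches at H19 142581791 and at Zdbf2 63261673 and 63273656 share bases with a CTCF match. Of these matches 1 held a measured cytosine, at Meg3 109540808, with a mean level of 49.5%.

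At Meg3, a maternally expressed long noncoding RNA, the intergenic region towards Dlk1 carries the germline mark, and the promoter is methylated later and under its control. Dlk1 is the paternally expressed ligand gene of the cluster. The 3 cytosines at -11464 to -11263 bases from the Meg3 start (109540996, forward strand), printed as Meg3 stretch 1, lie in this intergenic region. They had 70.5%, 67.9%, 75.0% and 72.5% in control samples 1 to 4 and 75.7%, 70.1%, 71.1% and 67.4% in arsenic samples 1 to 4. No sample was under 67%, and the groups overlapped, with means of 71.5% and 71.1%. The intergenic cytosines were 19.1 points above the 53 promoter cytosines, which had 52.2%, in 8 of 8 samples (exact sign-flip test, adjusted p = 0.0117).

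Around the promoter 84 cytosines from -1324 to 762 bases formed 1 stretch. Its average was 48.8%, 54.3%, 54.2% and 49.2% in the control samples and 57.2%, 54.5%, 51.6% and 49.6% in the arsenic samples, and the groups overlapped (difference 1.63 points, SE 2.26, exact permutation test, adjusted p = 0.882). Single cytosines of the stretch ranged from 26.7% to 92.9%. Thus the promoter was near 50% as a whole and uneven within.

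At 109540155, where the reverse strand has CC in the reference, the table lists a cytosine with 48.3%, and 209 of the 210 members are in CG in the reference.

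At Rasgrf1, the gene of a guanine nucleotide exchange factor expressed from the paternal allele in neonatal brain, the control region lies upstream of the gene beside a tandem repeat. Its 8 cytosines were all in 1 MspI fragment at -31698 to -31460 bases from the start site (89909775, forward strand), printed as Rasgrf1 stretch 1. The control samples had 46.8%, 65.2%, 55.0% and 55.7%, and the arsenic samples 43.3%, 53.2%, 51.9% and 50.1%. Control sample 2 was the highest and arsenic sample 1 the lowest, and the other 6 samples lay from 46.8% to 55.7%. Single cytosines were between 45.5% and 60.4%, the narrowest range of the 4 loci, over the fewest cytosines.

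At Zdbf2, the gene of a zinc finger protein expressed from the paternal allele, paternally methylated sequence lies upstream of a CpG-rich promoter. The gene's start taken here is at 63273269 on the forward strand, while a longer transcript begins at 63200358, so the upstream cytosines are annotated in an intron of the gene. The 42 cytosines more than 1 kb upstream had 44.5% and the 45 around the start 0.769%, a difference of 43.7 points in 8 of 8 samples (exact sign-flip test, adjusted p = 0.0117). At the start 24 cytosines had no methylated read in any sample, and the highest had a mean of 5.32%.

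Within the upstream part the level also varied with position. The 14 cytosines at -12064 to -11841 bases, printed as Zdbf2 stretch 1, had 45.5%, the 5 cytosines at -10747 to -10391 bases 27.4%, and the 21 cytosines at -7216 to -6758 bases 50.4%. A further 2 cytosines between 63263509 and 63263639 had 17.8%. The stretch at -7216 bases had 50.7%, 48.7%, 43.7% and 49.4% in control samples 1 to 4 and 53.4%, 58.9%, 51.9% and 46.3% in arsenic samples 1 to 4. Of the 4 arsenic samples 3 were above every control sample (difference 4.49 points, SE 2.99, exact permutation test, adjusted p = 0.771).

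**Figure D2:**
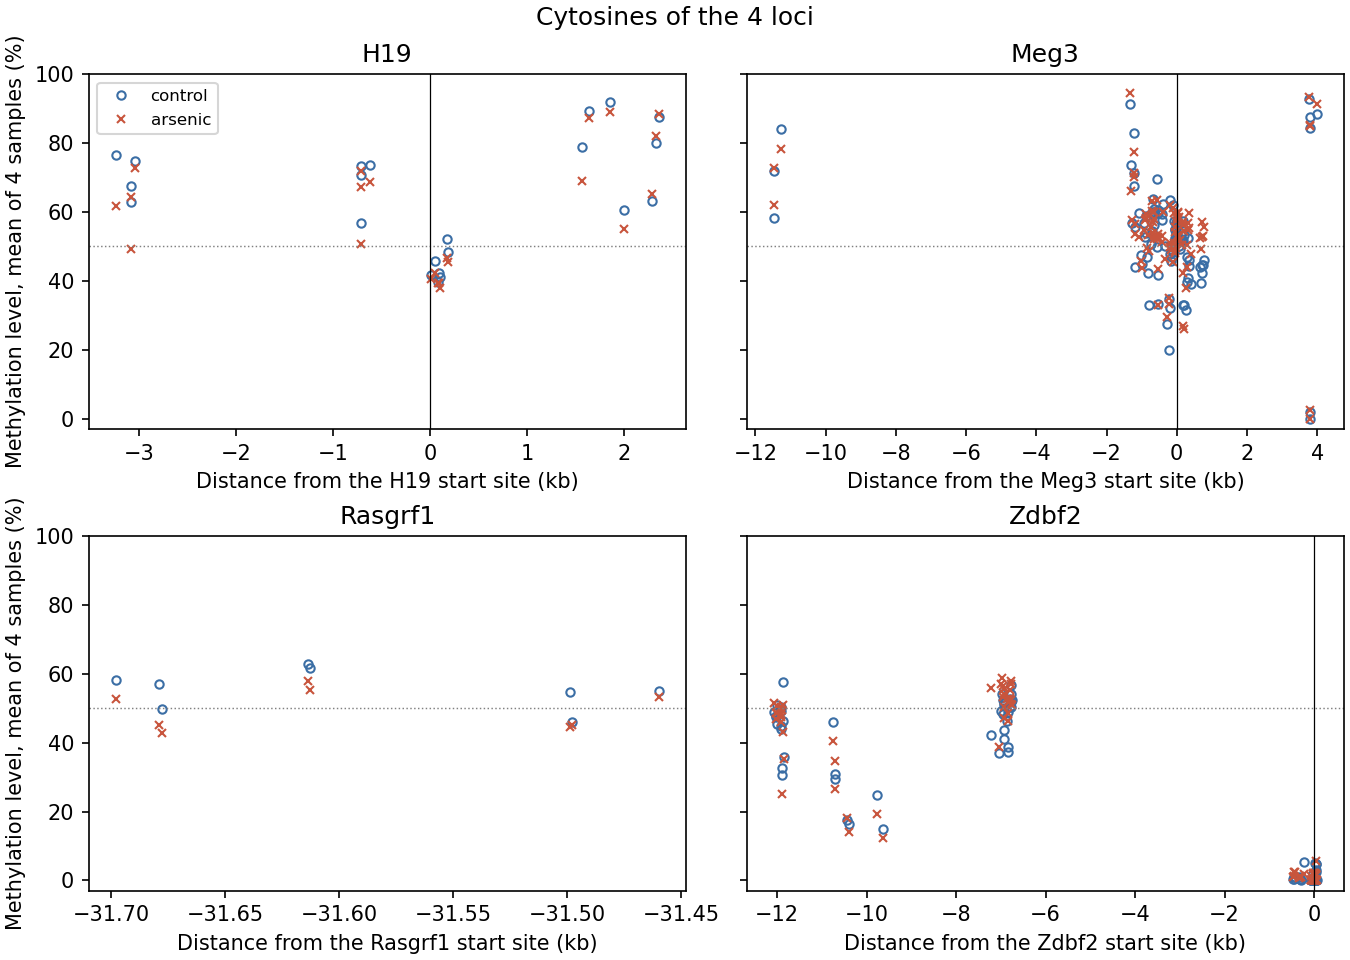
Methylation level of every cytosine of the 4 loci (y axis, percent, mean of the 4 samples of a group) against its distance from the start site of the gene (x axis, kb, negative upstream), with control as circles, arsenic as crosses, 50% as a dotted line and the start as a vertical line. Zdbf2 averages 44.5% more than 1 kb upstream, with an uneven profile, and 0.769% around the start. The Meg3 promoter lies around 52.2%.

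The comparison of the arsenic and control groups asks whether gestational exposure changed methylation at these loci in the fraction labelled type A spermatogonia. H19 had 64.3%, 65.1%, 66.8% and 62.0% in control samples 1 to 4 and 58.5%, 65.1%, 58.5% and 60.6% in arsenic samples 1 to 4. Of the arsenic samples 3 were below every control sample and 1 was within their range. The difference was -3.85 points (SE 1.86, exact permutation test, two-sided, p = 0.114, adjusted p = 0.429 over the 4 loci). Meg3 had 50.1%, 55.1%, 55.2% and 50.6% in the control and 58.0%, 55.3%, 52.8% and 50.9% in the arsenic samples, a difference of 1.49 points (SE 2.07, exact permutation test, adjusted p = 0.429). Here the groups overlapped over most of their range.

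The difference at Rasgrf1 was -6.05 points (SE 4.38, exact permutation test, adjusted p = 0.429), with the values given above. Zdbf2 had 22.7%, 20.1%, 20.1% and 22.3% in the control and 23.9%, 24.5%, 20.4% and 20.9% in the arsenic samples, a difference of 1.09 points (SE 1.24, exact permutation test, adjusted p = 0.429). With 4 against 4 samples the smallest p of this test is 0.0286, and after adjustment over the 4 loci a single locus, whatever its difference, cannot go below 0.114. No single locus could therefore have passed after adjustment. Over all other cytosines the arsenic samples were at -0.311 points (exact permutation test, p = 0.0286).

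**Figure D3:**
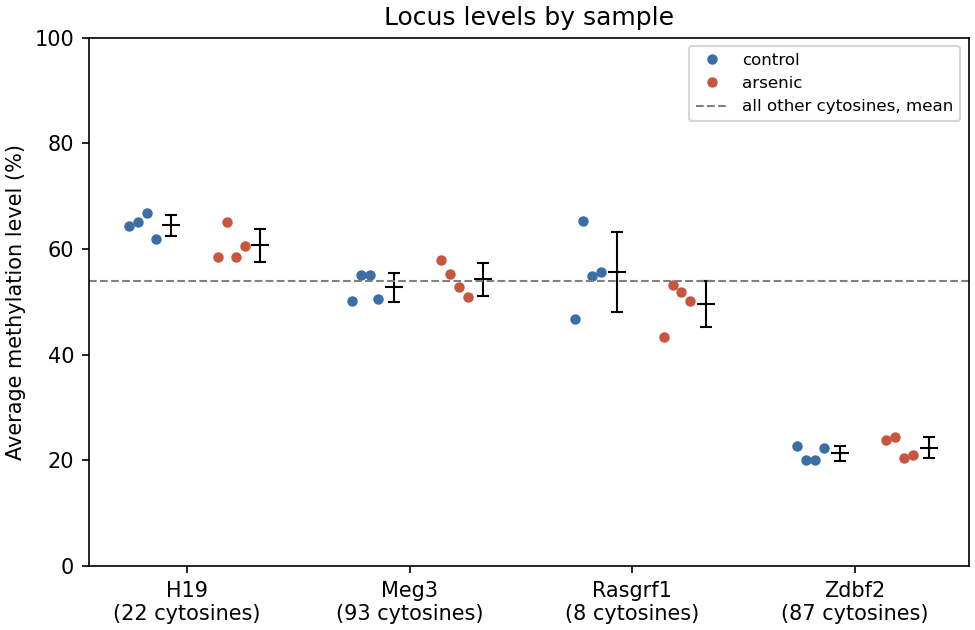
Average methylation level of each locus (y axis, percent) in every sample, with control and arsenic samples as points, the group mean ± SD beside them (n = 4) and the mean of all other cytosines as a dashed line. The groups overlap at each of the 4 loci.

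None of the 210 members was a differentially methylated cytosine (DMC), which here means a q of at most 0.01 in logistic regression and a difference of at least 10 points. Of all 2130064 cytosines, 0.552% were called. In the likelihood-ratio test 10 members (4.76%) had an unadjusted p under 0.05, against 17.8% of all cytosines. With limma, which takes the spread between samples into account, 0 members and 0% of all cytosines were called, and 1 member (0.476%) had an unadjusted p under 0.05, against 5.11% of all. Members were lower in the arsenic group at 18 of 22 cytosines of H19 and higher at 4. At Meg3 36 of 93 were lower and 56 higher, and at Rasgrf1 8 of 8 were lower. At Zdbf2 22 of 87 were lower, 41 higher and 24 equal. Of all cytosines 48.5% were lower and 43.9% higher. Cytosines of a fragment share their reads, so these counts are not of independent sites.

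The member with the lowest p at H19 was also the one with its largest difference, 142581231 in the control region, an element of the printed H19 stretch 4 (reverse strand, 31 to 63 reads). It had 65.1%, 77.1%, 69.8% and 58.1% in control samples 1 to 4 and 38.2%, 50%, 46.0% and 63.0% in arsenic samples 1 to 4. Arsenic sample 4 lay inside the control range and the other 3 below it (weighted difference -17.4 points, q = 0.0397 in the likelihood-ratio test and 0.972 in limma). On the reverse strand of this MspI fragment, the mean of its 2 cytosines was 68.6%, 84.2%, 73.0% and 62.4% in the control and 50%, 60.9%, 49.5% and 61.7% in the arsenic samples. These groups did not overlap, by a gap of less than 1 point, and the difference was -16.5 points (exact permutation test, p = 0.0286). It was the only 1 of 36 fragment strands with an unadjusted p of at most 0.05 in that test, and 0.0286 is the smallest p the test allows. Adjusted over 36 strands, a lone strand cannot go below 1, so a single strand at this p among 36 cannot be told apart from chance. On the forward strand of the same fragment the 2 cytosines differed by -0.376 points, with 68.9% in the control and 68.6% in the arsenic group. The comparison of fragments was chosen after the values were seen.

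At Meg3 the lowest p was at 109540195 (reverse strand, -801 bases, 46 to 86 reads). It had 45.2%, 30.6%, 38.9% and 17.4% in the control and 52.3%, 55.6%, 39.5% and 47.0% in the arsenic samples, with a weighted difference of 14.3 points (likelihood-ratio test q = 0.0357, limma 0.972). Without control sample 1 the difference was 18.4 points, and this cytosine became the only member called (q = 0.00963), where 0.593% of all cytosines were called. The largest difference of the locus was 17.7 points at 109540792 (forward strand, 12 to 37 reads, q = 0.162).

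At Zdbf2 the lowest p was at 63266053 (forward strand, 39 to 70 reads). It had 47.2%, 35.5%, 41.9% and 44.2% in the control and 53.8%, 50%, 49.2% and 70% in the arsenic samples, with a weighted difference of 15.2 points (likelihood-ratio test q = 0.0496, limma 0.972). This was the 1 member of 210 whose groups did not overlap, and of all cytosines 2.1% had groups that did not overlap. The largest difference of the locus was 18.7 points at 63261379 (forward strand, 15 to 39 reads, q = 0.0883). At Rasgrf1 the lowest p and the largest difference were at 89878096 (forward strand, 37 to 65 reads), with 48.1%, 64.3%, 59.1% and 56.8% in the control and 41.5%, 43.1%, 43.2% and 53.1% in the arsenic samples (weighted difference -11.2 points, q = 0.215).

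For the 12 stretches of at least 3 cytosines, a lone stretch cannot go below an adjusted p of 0.343, so no single stretch could be called. None had an unadjusted p of at most 0.05 in the exact permutation test, and the lowest adjusted p was 0.771. The differences of the stretches ran from -8.45 points at H19 stretch 4 to 4.49 points at Zdbf2 stretch 3.

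**Figure D4:**
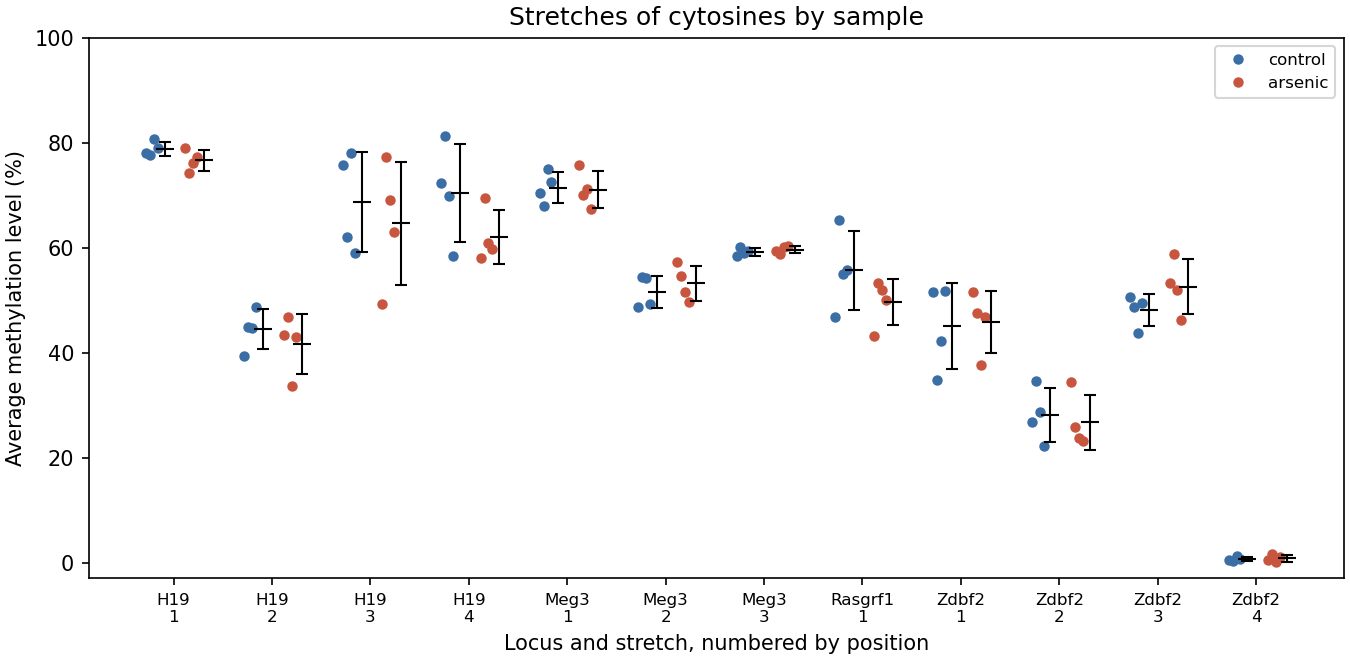
Average methylation level of the 12 stretches (y axis, percent) in every sample, numbered by position within each locus (x axis), with control and arsenic samples as points and the group mean ± SD (n = 4) beside them. The groups overlap in every stretch. The SD of the control group is largest at H19 stretches 3 and 4, and that of the arsenic group at H19 stretch 3.

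The 210 members lay in 36 strands of MspI fragments, 7 at H19, 15 at Meg3, 2 at Rasgrf1 and 12 at Zdbf2, and the cytosines of a strand can share reads. At 31 strands with a mean level from 20% to 80% the SD between the 8 samples was 0.961 times (median) the SD that counting alone gives a single cytosine, taken at each cytosine's own mean level and the strand's median coverage and averaged over the strand, with a range of 0.524 to 2.00. It was above that SD at 15 strands and below it at 16. The reverse strand of the Meg3 fragment from 109539656 to 109540054 is an example, with 12 cytosines at a median of 20 reads. Its average was 46.9%, 71.3%, 74.0% and 58.4% in the control and 80.3%, 60.6%, 61.4% and 45.9% in the arsenic samples. The SD of this average was 12.4 points, where counting gives a single cytosine 10.3. For an average over several cytosines counting gives less, unless their reads are shared and alike. In contrast the forward strand of the fragment at H19 142575795, with a median of 229 reads, had an SD of 2.53 points. Over all members at 20% to 80% the mean SD between samples was 9.73 points, against 10.3 points at other cytosines of that range. For the locus averages, counting with reads taken as independent gives an SE of 1.25 points at H19, 0.859 at Meg3, 2.11 at Rasgrf1 and 0.634 at Zdbf2. The SDs between the 8 samples were larger, 3.19, 2.83, 6.58 and 1.73 points in that order.

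**Figure D5:**
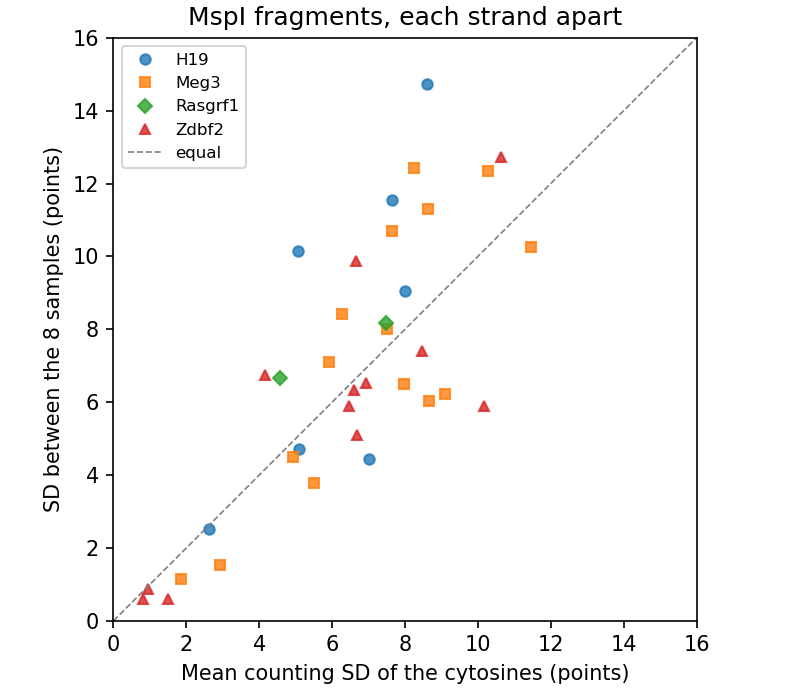
SD between the 8 samples (y axis, points) of the average level of each of 36 fragment strands, against the counting SD of single cytosines at their mean level and the strand's median coverage, averaged over the strand (x axis, points), with the dashed line where they are equal. At 20% to 80% the points lie on both sides of the line, 15 above and 16 below.

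RRBS reads the strands of a CpG separately, which gave a check within Meg3, Zdbf2 and Rasgrf1. At H19 only 1 CpG was read on both strands. At Meg3 25 CpGs were read on both strands, with averages of 51.7% on the forward and 52.3% on the reverse strand. Single CpGs in single samples differed by 12.7 points between strands on average, where the counting error of such a difference was 9.89 points. Over the 8 samples the averages of the strands had a Pearson's r of -0.04, a description over 8 samples of the same libraries. At Zdbf2 32 CpGs were read on both strands, with 23.4% on the forward and 21.6% on the reverse strand. Single CpGs in single samples differed there by 6.63 points on average, where the counting error was 6.09 points. There r over the samples was -0.33, and at Rasgrf1, with 3 such CpGs, it was 0.56.

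By Pearson's r over the 8 samples, among 2315 promoters with at least 5 cytosines and a mean level from 10% to 90%, the most alike to H19 were Gnasas1 (r = 0.940, mean level 39.3%) and Jade1 (r = 0.924, 12.8%). Those most alike to Meg3 were 1300017J02Rik (r = 0.954, 70.4%) and Ctu1 (r = 0.921, 25.3%), and those to Rasgrf1 were Nsd3 (r = 0.934, 18.96%) and Crybb1 (r = 0.899, 38.7%). For Zdbf2 they were Gm32273 (r = 0.910, 20.4%) and Aplp1 (r = 0.905, 15.1%). These are the highest of 2315 correlations over only 8 samples of the same libraries, given as a description.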

How the data were processed

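The authors sequenced RRBS libraries on a NovaSeq, trimmed the reads, mapped them to mm10 and joined the samples, keeping strands apart and cytosines with coverage of at least 10 in all 8 samples. Their processing notes name Trim Galore 0.6.5, Bismark 0.22.3 and methylKit 1.22.0. The deposited values are counts of covering, methylated and unmethylated reads per cytosine, not normalized, and groups came from the labels. Of 2131605 cytosines listed, 2130064 on chromosomes 1 to 19, X and Y were used, and coverage was the sum of both counts at each. A pool was 1 replicate in the tests over samples and in limma.

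The members and lists were chosen with earlier results of these data known. Levels were averaged over cytosines without weights. Two-sided exact permutation tests over 4 against 4 samples served for locus and stretch levels, and loci were set against each other by exact sign flips over 8 samples, with Benjamini-Hochberg adjustment within each family. DMCs were called over the whole table with the likelihood-ratio test of logistic regression on pooled counts (which treats reads of a group as independent, does not measure the spread between pools, and stands for methylKit's test), q by Benjamini-Hochberg. limma 3.58.1 in R 4.3.3 was run on log2 ratios with a pseudocount of 1. Named cytosines are, per locus, those called and those with the largest difference, the lowest p and the lowest and highest mean level, and promoters run from 1 kb before to 100 bases after a start. Sequence and gene models are RefSeq's on GRCm38, without strain variants. Tables were handled in pandas 2.3.3 and numpy 2.4.6, exact tests used scipy 1.17.1, and figures were drawn with matplotlib 3.10.9, all under Python 3.11.15. Same-numbered samples were not paired in the labels, and prospermatogonia, sperm and expression were not analysed here. One item at Meg3 is not reported here.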

Additional observations from a re-analysis of the deposited data

How the results depend on the processing

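Coverage of at least 20 or 30, weighting by coverage, both strands summed, CpG context only, the deepest 0.1% left out, fragments weighted equally (chosen after seeing the data) and each sample left out were tried for the locus differences. H19 ran from -5.34 to -1.08 points, Meg3 from 0.231 to 2.61, Rasgrf1 from -9.01 to -2.86 and Zdbf2 from -0.175 to 2.01, with adjusted p from 0.229 to 0.886. The coverage-weighted difference of Zdbf2 was the one that reversed, to -0.175 points. Leaving out 1 sample in turn, the members called ranged from 0 to 1, with the call made without control sample 1, where 0.593% of all cytosines were called. With both strands summed, 2 of 149 CpGs (of all CpGs, 2.22%) had groups that did not overlap. With coverage-weighted means 4 loci differed from all other cytosines in place of 2, Meg3 by -3.99 and Rasgrf1 by -6.05 points. Without Zdbf2, added after seeing the data, the mean of the loci minus the maternally methylated promoters reversed to 0.287 points. Left-out samples moved Meg3 minus Rasgrf1 from -1.12 to 2.42 points, Meg3 minus all other cytosines from -1.11 to 0.0182 and Rasgrf1 minus all other cytosines from -3.12 to 0.00875. The labels do not say whether same-numbered samples share more than a number. The correlation of their deviations ran from -7.81e-05 to 0.00178, and that of differently numbered samples across the groups from -0.00234 to 0.00245. With the number as a replicate block the 4 locus differences had an adjusted p of 0.5 or 0.625 (exact sign flips over 4 pairs, smallest p 0.125), and 0 members were called by limma (0% of all cytosines) or the Cochran-Mantel-Haenszel test (0.377%). At a median of 38 reads, single cytosines cannot show differences of a few points.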

Other observations

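Over the 8 samples, 14 relations between locus levels, and between loci and the averages of the maternally methylated and the germline promoters, were computed after the data were seen, with exact permutation tests over samples. The lowest adjusted p for Pearson's r was 0.497 and for Spearman's rho 0.617. The strongest was that of Zdbf2 with the maternally methylated promoters (r = -0.63, exact permutation p = 0.0880, rho = -0.69, exact permutation p = 0.0694). Without the 2 samples farthest from the median its r was -0.32. Leaving out extreme samples narrows the range, so this change does not show what the relation rests on. H19 and Meg3, which both carry the paternal mark, had r = 0.021 (exact permutation p = 0.959) and rho = 0.071 (exact permutation p = 0.882), and r = 0.75 without the 2 farthest samples. For Meg3 and Zdbf2, r was 0.21 (exact permutation p = 0.611), rho 0.14 (exact permutation p = 0.752) and r -0.87 without the 2 farthest samples, so that 6 to 8 samples do not fix the size or the sign of these relations.

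Single maternally methylated promoters in the same samples ran from 40.9% at Inpp5f to 76.7% at Mest, with Snrpn at 52.6%, and the germline promoters from 60.7% at Tdrd1 to 94.9% at Dazl. The averages of both lists were lower in the arsenic group, and the groups overlapped in both. The maternally methylated promoters differed by -2.96 points (exact permutation p = 0.114), with an SD of 2.00 in the control and 2.65 in the arsenic group. They had 57.0%, 56.8%, 60.3% and 55.6% in control samples 1 to 4 and 53.2%, 52.9%, 53.4% and 58.4% in arsenic samples 1 to 4. The germline promoters differed by -0.775 points (exact permutation p = 0.6), with SDs of 1.92 and 2.28.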
